A study of Mus musculus with 8 samples.

Results

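The m6A peaks of 58 chromatin modifier and coregulator genes were examined in BMDMs (bone marrow-derived macrophages) of 2 WT and 2 KO mice. The genes were taken from a list of names, out of 21866 protein-coding genes of the GENCODE M21 annotation, and cover enzymes that add or remove histone and DNA marks, chromatin remodellers, and coactivators and corepressors of transcription. In MeRIP-Seq, an antibody captures RNA fragments that carry m6A, and stretches where the captured fragments outnumber those of the input RNA are called as peaks. Each of 4 mice gave an IP and an input library, 8 libraries in all, and 1 peak list, named here WT-1 and WT-2 for the WT mice and KO-1 and KO-2 for the KO mice. The labels number 2 replicates per genotype, and each was taken as 1 mouse. WT mice carried floxed *Mettl3* without Cre (*Mettl3* fl/fl Lyz2+/+) and KO mice carried it with Cre from the *Lyz2* locus (*Mettl3* fl/fl Lyz2cre/+), so the floxed alleles were common to both genotypes. The mice were C57BL/6 and 8 weeks old, and their marrow was grown with M-CSF at 40 ng/mL for 7 days. Lyz2-Cre acts in the myeloid compartment and, per the study, also deletes in most granulocytes and in a few dendritic cells, and the deletion in BMDMs is not complete. The lists hold peak positions and a peak caller score but no read counts, so the depth behind a peak is unknown and the presence of a peak, not its level, was compared.

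m6A is set on mRNA in the nucleus by a complex in which METTL3 is the catalytic subunit, mostly within short motifs such as GGAC, and it is known to be dense in long internal exons and around stop codons. Reader proteins of the YTH family bind it and alter the stability and translation of the mRNA. The proteins encoded by the genes studied here act on chromatin: H3K4 and H3K36 methyltransferases mark promoters and transcribed genes, Polycomb proteins silence genes, demethylases and deacetylases remove marks, SWI/SNF and CHD proteins move nucleosomes, and TET and DNMT enzymes set the methylation of DNA. In macrophages such factors are known to control inflammatory genes and the identity of the cell.

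*Mettl3* itself had no peak in any list, so the deleted gene gave no check of the genotypes. Of 10 macrophage markers 3 had a peak in any list (*Mertk*, *Cd14* and *Fcgr1*), while *Csf1r*, *Adgre1* and *Lyz2* had none, and of markers of other blood cells the T cell gene *Cd4* had peaks in both WT lists, with none on the 3 B cell, 4 granulocyte and 3 dendritic cell markers. The absence of a peak does not show that an RNA was absent, so these counts are no full check of the cell type. On the 58 genes the Jaccard index of peak bases (bases in common divided by bases in the union) was 0.430 between WT mice, 0.639 between KO mice and 0.466 to 0.4925 across genotypes. WT-1 and WT-2 were thus less alike than either was to a KO list. Every listed peak was at least 300 bp wide, and over all genes WT-1 held 5876 assigned peaks, WT-2 6027, KO-1 6049 and KO-2 6358.

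Peaks were frequent on these genes in both genotypes. The genes were chosen with earlier results of these data known, so the shares below describe them and are no test against other genes. Of the 58 genes, 50 had a peak in at least 1 list and 44 (75.9%) had one in all 4 lists, whereas 6971 of the 21866 genes had a peak in any list and 2125 (9.72%) in all 4. In each list 47 or 48 of the 58 genes carried a peak (81.0% to 82.8%), against 19.0% to 20.3% of all genes and 42.2% to 49.1% of 116 further chromatin genes of the same or related roles (6 of them H3K9 methyltransferases, a role with no gene among the 58). WT-1, WT-2 and KO-1 each had 47 such genes and KO-2 had 48, and the difference of 0.5 genes was within the spread of the KO lists (two-sided exact permutation test over the 6 labellings of the lists, p = 1). On these genes WT-1 held 124 peaks, WT-2 114, KO-1 134 and KO-2 132. Both KO lists thus lay above both WT lists, with a WT mean of 119 ± 7.07 and a KO mean of 133 ± 1.41 (SD, n = 2 each). The difference of 14 peaks had p = 0.33 (two-sided exact permutation test), the smallest value that 2 mice against 2 can give, and without WT replicate 2 it was 9 peaks. Over all genes the KO lists also held more peaks, by 252 on average.

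**Figure D1:**
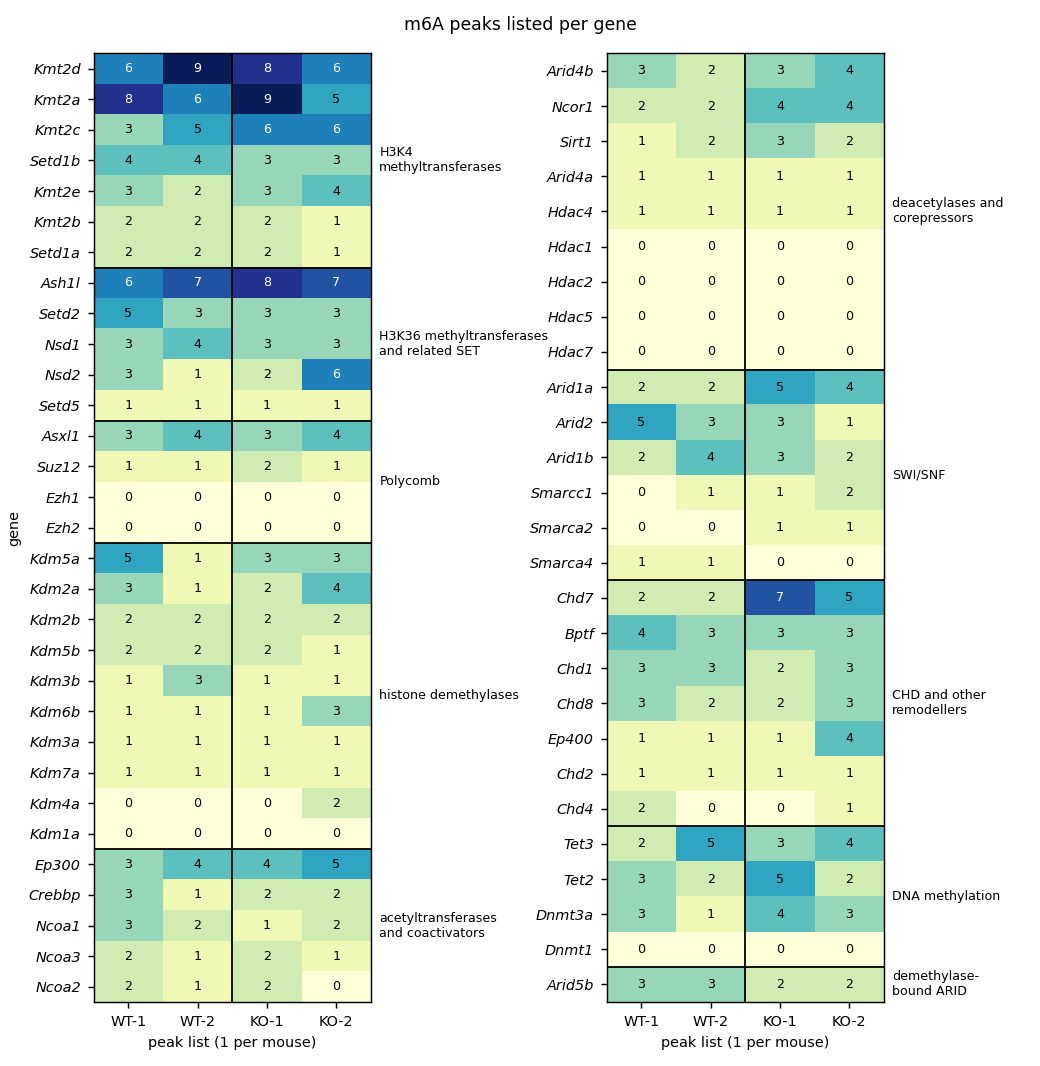
Number of m6A peaks on each of the 58 genes (rows, grouped by role and ordered by their total within a role) in each peak list (columns, 1 per mouse, WT left and KO right of the line), with the number printed in each cell. *Kmt2d*, *Kmt2a* and *Ash1l* held between 5 and 9 peaks in every list, and 8 genes held none.

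Every gene of the H3K4 and H3K36 methyltransferase groups carried peaks. All 7 H3K4 methyltransferase genes had a peak in every list, and together they held 28, 30, 33 and 26 peaks (in the order WT-1, WT-2, KO-1, KO-2, as in the counts that follow), with overlapping genotypes. *Kmt2d*, an H3K4 methyltransferase of enhancers, held 6, 9, 8 and 6 peaks. *Kmt2a*, the methyltransferase of the MLL complex, held 8, 6, 9 and 5. The WT and KO lists overlapped for both genes. *Setd1a* was at the low end of this group with 2, 2, 2 and 1 peaks, as was *Kmt2b* with the same numbers. The 5 H3K36 methyltransferases and related SET proteins also had a peak in every list, with 18, 16, 17 and 20 peaks together. In that group *Ash1l*, a trithorax-type methyltransferase, held 6, 7, 8 and 7 peaks, and *Setd5* held 1 peak in each list.

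Not every gene of the Polycomb, deacetylase and demethylase groups carried a peak. Of 4 Polycomb genes, *Asxl1*, a partner of the H2A deubiquitinase, held 3, 4, 3 and 4 peaks and *Suz12*, a subunit of PRC2, held 1, 1, 2 and 1, while the PRC2 methyltransferases *Ezh1* and *Ezh2* had none. Among 10 histone demethylases, 8 had a peak in every list. *Kdm5a*, an H3K4 demethylase, and *Kdm2a*, an H3K36 demethylase, had the most, with 5, 1, 3 and 3 and with 3, 1, 2 and 4 peaks. *Kdm1a* (LSD1) had none, and *Kdm4a* had 2 peaks in KO-2 and none in the other lists. Of 9 deacetylases and corepressors 5 had a peak in every list. *Arid4b*, a subunit of the Sin3-HDAC corepressor, held 3, 2, 3 and 4 peaks, and *Ncor1*, the nuclear receptor corepressor, held 2, 2, 4 and 4. The class I deacetylases *Hdac1* and *Hdac2* and the class II deacetylases *Hdac5* and *Hdac7* had no peak, whereas *Hdac4*, also of class II, held 1 peak in each list.

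Coactivators, remodellers and DNA methylation enzymes differed from group to group. A peak in every list was found for 4 of 5 coactivators, 3 of 6 SWI/SNF genes, 6 of 7 CHD and other remodellers and 3 of 4 DNA methylation enzymes. The 5 acetyltransferases and coactivators held 13, 9, 11 and 10 peaks, of which *Ep300* (p300) held 3, 4, 4 and 5. *Ncoa2*, a nuclear receptor coactivator, was the lowest of them, with 2, 1, 2 and 0. The 6 SWI/SNF genes held 10, 11, 13 and 10 peaks, and their 2 ATPase genes had the fewest: *Smarca2* (BRM) with 0, 0, 1 and 1 and *Smarca4* (BRG1) with 1, 1, 0 and 0. The 7 CHD and other remodeller genes held 16, 12, 16 and 20 peaks, with *Chd7* at 2, 2, 7 and 5 and *Chd4*, the ATPase of the NuRD complex, at 2, 0, 0 and 1. For DNA methylation, *Tet3* held 2, 5, 3 and 4 peaks, *Tet2* 3, 2, 5 and 2 and *Dnmt3a* 3, 1, 4 and 3. *Dnmt1*, the maintenance methyltransferase, had none. *Arid5b*, which brings a histone demethylase to DNA, held 3, 3, 2 and 2 peaks.

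Peaks on these genes lay mostly in the coding sequence (CDS) and in internal exons. By the midpoint of each peak on its gene's longest coding transcript, the CDS held 72.5%, 72.5%, 81.4% and 76.7% of the placed peaks. Both KO lists were above both WT lists, with a WT mean of 72.5% ± 0.016 and a KO mean of 79.03% ± 3.34 (SD, n = 2 each), and the difference of 6.54 percentage points had p = 0.33 (two-sided exact permutation test, the smallest possible). This difference fell to 1.68 points in the upper 50% of peaks by score, where the genotypes overlapped (86.1%, 79.1%, 86.5% and 82.1%), and to 3.21 points when every exonic base of a peak was counted in place of its midpoint. Over all genes the CDS held 46.9%, 45.3%, 52.0% and 49.9%, a difference of 4.82 points in the same direction, and on the other chromatin genes 56.0%, 53.6%, 65.7% and 70.6%, a difference of 13.4 points. The 3′-UTR held 25.8%, 26.6%, 16.3% and 20.8% of the peaks on the 58 genes, lower in both KO lists. Peaks that overlapped a stop codon made up 16.3% to 20.8% of the peaks on these genes in a list and 33.9% to 37.6% of the peaks on all genes.

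**Figure D2:**
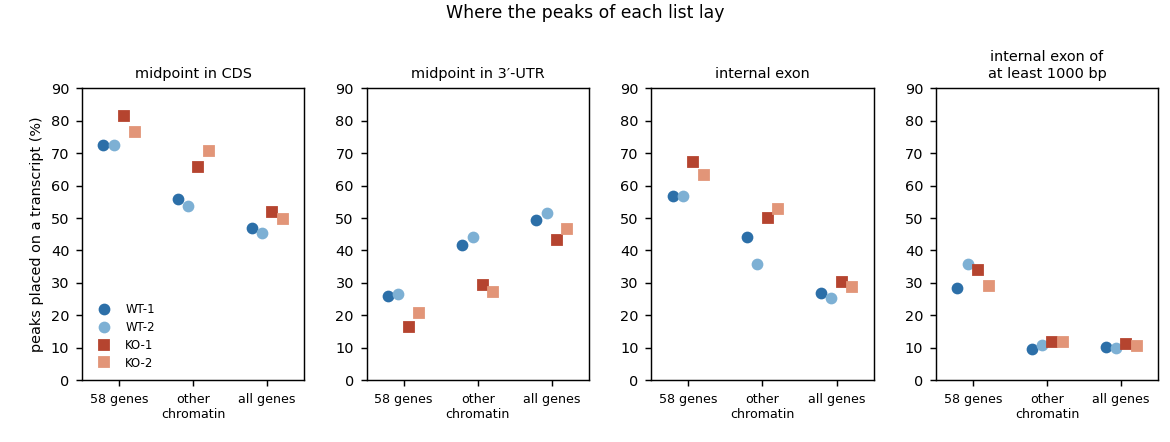
Share of placed peaks (vertical axis, percent) with the midpoint in the CDS or the 3′-UTR, in an internal exon, and in an internal exon of at least 1000 bp, for each list (WT circles, KO squares), on the 58 genes, on 116 other chromatin genes and on all protein-coding genes. The 58 genes lie between 28.3% and 35.8% for internal exons of at least 1000 bp, and all genes between 10.0% and 11.3%.

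Internal exons, which are neither the first nor the last of the transcript, held 56.7%, 56.9%, 67.4% and 63.3% of the peaks on the 58 genes, against 25.2% to 30.2% over all genes. Internal exons of at least 1000 bp held 28.3%, 35.8%, 34.1% and 29.2%, with overlapping genotypes, and 9.5% to 11.8% on the other chromatin genes. Of the 58 genes, 22 had an internal exon of 1000 bp or more, and each of these 22 had a peak in its longest internal exon in at least 1 list, 14 of them in all 4 lists. Among the 1050 genes of the annotation with such an exon, 54.7% had a peak in it in any list, as had 10 of 11 other chromatin genes (90.9%). The longest of these exons belonged to *Ash1l* (exon 3 of 28, 4558 bp), *Setd2* (exon 3 of 21, 4286 bp), *Kmt2a* (exon 27 of 36, 4237 bp) and *Tet2* (exon 3 of 11, 3206 bp), and all 4 had a peak there in every list. *Kmt2c* was the least covered of the 22, with a peak in its longest internal exon (exon 36, 1896 bp) in KO-2 alone. Where the longest internal exon measured at least 300 but under 1000 bp, 18 of 19 genes had a peak in it in some list (all genes 26.2%). Where it was shorter than 300 bp, which is less than the narrowest peak, 1 of 17 genes did (*Dnmt3a*, exon 4 of 268 bp, in both KO lists), against 0.897% of all genes.

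The 58 genes were also long. Their longest coding transcript had a median of 7851 bp, compared with 2683 bp for all protein-coding genes. Among genes with a peak in any list the medians were 8268.5 bp and 3740 bp. Each of the 28 genes with a transcript of at least 8000 bp had a peak in some list (all genes of that length 54.0%), as did 17 of 18 genes between 5000 and 8000 bp (all genes 55.2%) and 5 of 12 below 5000 bp (all genes 27.2%). Per kb of transcript, the genes with a peak held a median of 0.279 peaks per list, and all genes with a peak 0.1875. The 8 genes without a peak (*Ezh1*, *Ezh2*, *Kdm1a*, *Hdac1*, *Hdac2*, *Hdac5*, *Hdac7* and *Dnmt1*) had transcripts of 2038 to 5870 bp and a median longest internal exon of 199.5 bp, whereas the 50 genes with a peak had a median of 747 bp. The lists give no level of the input RNA, so the part of expression in these counts was not tested.

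**Figure D3:**
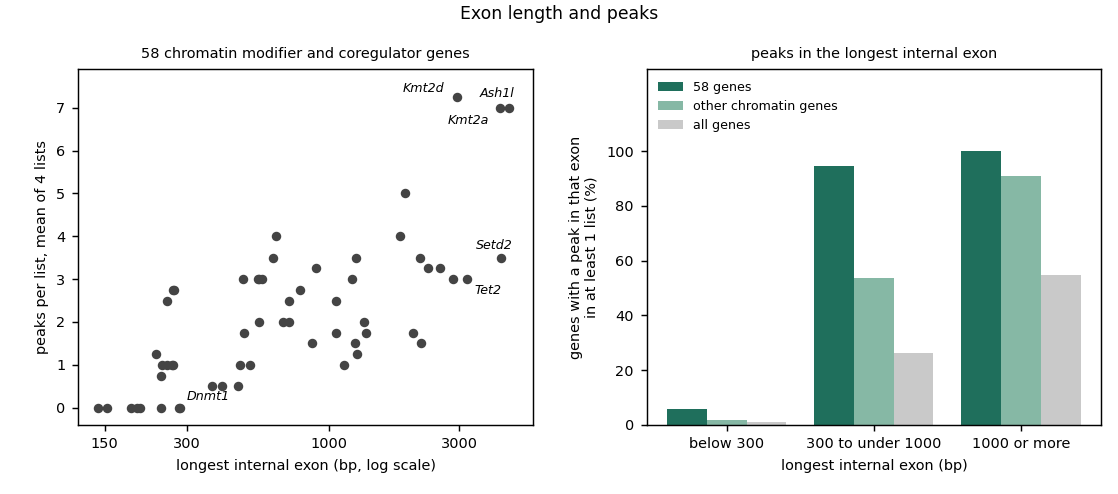
Left, mean number of peaks per list (vertical axis) against the length of the longest internal exon (horizontal axis, bp, log scale) for each of the 58 genes (points). Right, share of genes (vertical axis, percent) with a peak in their longest internal exon in at least 1 list, by the length of that exon, where the 58 genes reach 5.88%, 94.7% and 100% and all genes 0.897%, 26.2% and 54.7%.

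When the peaks of the 4 lists were merged wherever they shared a base, the 58 genes had 192 regions, of which 60 (31.25%) were shared by every list, 31 by 3 lists, and 64 (33.3%) came from 1 list. Over all genes 18.5% of 11649 regions were shared by every list and 48.4% came from 1 list. The 60 regions lay on 39 genes, with 4 each on *Ash1l* and *Kmt2a*, 3 each on *Bptf*, *Kmt2c* and *Kmt2d*, and 2 each on 9 genes, among them *Arid1b*. Of those whose midpoint could be placed, 47 of 56 (83.9%) were in the CDS, compared with 57.4% for all genes. Their bounds equalled those of an annotated exon in 21 of 60 regions (35%), and this was so in 26.2% of the 2160 such regions of all genes. In *Ash1l*, the merged regions covered the 517 bp of exon 2 and the 736 bp of exon 5 from end to end. Of these, 405 bp and 514 bp were common to all lists. The 2 other regions of *Ash1l* lay in exon 3. The regions of *Kmt2a* lay in exons 3 and 27, those of *Bptf*, a subunit of the NURF remodeller, in exons 1, 2 and 13, and those of *Kmt2c* in exons 14, 38 and 43. A region in all 4 lists need not share bases: in *Kmt2d* exon 40 only 3 bp and in *Kdm6b* exon 11 no base were common to all lists.

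**Figure D4:**
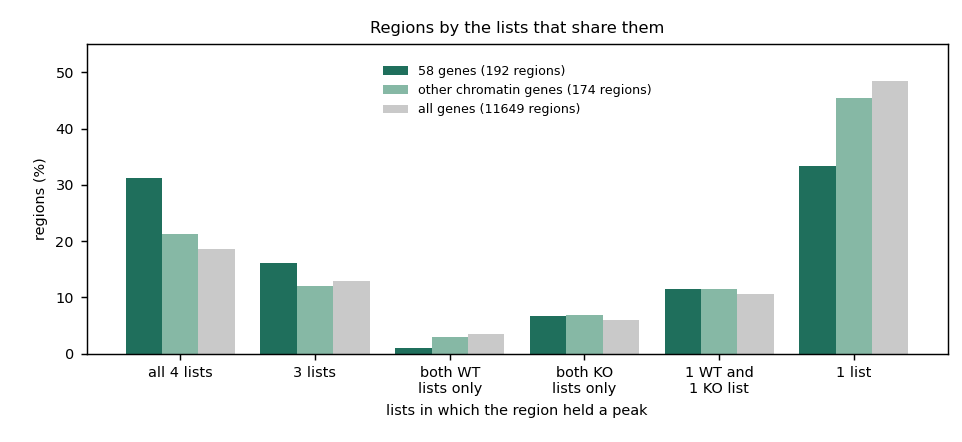
Share of merged regions (vertical axis, percent) by the lists in which they held a peak (horizontal axis), for the 58 genes, the other chromatin genes and all genes. Regions in all 4 lists make up 31.25% on the 58 genes and 18.5% on all genes, and regions in both KO lists only 6.77% and 6.06%.

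In 9 of the 60 regions the score was 3100 or more in every list (15%, all genes 13.6%), and they lay on *Setd2* and *Nsd1*, with 2 each, and on *Ash1l*, *Kmt2a*, *Arid4b*, *Bptf* and *Ep400*. Many peaks were tied at 3100. In WT-1, 89.5% of peaks scored 3022.48 or less and 99.66% scored 3100 or less. In KO-2, 80.51% scored 3090.87 or less and 99.27% scored 3100 or less. A stretch of 120 bases from each of these 7 genes, taken from the bases common to all 4 lists, is shown because it marks the coding exons where the signal was listed with a score of 3100 or more in each mouse. The sequences are read 5′ to 3′ on the strand of the gene (GRCm38), with GGAC in capitals.
Ash1l exon 3, chr3:88981745-88981864, plus strand: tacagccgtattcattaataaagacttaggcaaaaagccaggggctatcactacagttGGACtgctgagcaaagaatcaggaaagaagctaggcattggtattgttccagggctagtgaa
Kmt2a exon 27, chr9:44820802-44820921, minus strand: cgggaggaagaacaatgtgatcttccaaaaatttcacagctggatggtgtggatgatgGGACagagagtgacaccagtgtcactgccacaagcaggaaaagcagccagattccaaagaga
Setd2 exon 3, chr9:110550759-110550878, plus strand: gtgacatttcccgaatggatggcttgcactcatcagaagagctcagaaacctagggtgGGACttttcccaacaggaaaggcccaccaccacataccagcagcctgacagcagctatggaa
Nsd1 exon 5, chr13:55247136-55247255, plus strand: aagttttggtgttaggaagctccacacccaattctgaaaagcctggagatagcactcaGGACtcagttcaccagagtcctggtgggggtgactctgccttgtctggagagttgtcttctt
Arid4b exon 20, chr13:14187063-14187182, plus strand: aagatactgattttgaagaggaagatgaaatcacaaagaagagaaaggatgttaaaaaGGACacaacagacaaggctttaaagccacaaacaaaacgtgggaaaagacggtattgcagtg
Ep400 exon 2, chr5:110755564-110755683, minus strand: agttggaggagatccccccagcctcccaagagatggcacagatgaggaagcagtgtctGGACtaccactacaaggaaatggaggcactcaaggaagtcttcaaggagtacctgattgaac
Bptf exon 1, chr11:107131418-107131537, minus strand: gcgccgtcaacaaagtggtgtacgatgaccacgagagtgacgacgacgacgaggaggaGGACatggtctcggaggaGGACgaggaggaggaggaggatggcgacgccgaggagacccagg

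The shared bases of these regions held more than one GGAC: 8 in *Ash1l* exon 3 (935 bp), 8 in *Nsd1* exon 5 (1446 bp), 5 in *Setd2* exon 3 (1274 bp), 5 in *Arid4b* exon 20 (816 bp), 4 in *Ep400* exon 2 (590 bp), 5 in *Bptf* exon 1 (407 bp) and 2 in *Kmt2a* exon 27 (517 bp). GGAC was searched on the strand of the gene only. It was present in 58 of the 60 regions, which had a median width of 1037.5 bp, and absent from those of *Sirt1* exon 14 and *Chd1* exon 23. Of single peaks on the 58 genes, 87.9%, 88.6%, 88.8% and 87.9% held GGAC in the 4 lists, so that the genotypes overlapped and differed by 0.0925 percentage points (two-sided exact permutation test, p = 1). The share was 86.6% to 88.3% for all genes. Within 200 bp around the peak centre the share was 64.5%, 64.9%, 60.4% and 59.1%, so that the KO mean dropped by 4.94 points and both KO lists were below both WT lists (two-sided exact permutation test, p = 0.33), and 60.7%, 63.4%, 60.9% and 60.2% for all genes. As a measure of how often the motif occurs in any case, 58.03% of 1525 windows of 200 bases tiled along the CDS of the 58 genes held GGAC, and 44.9% of 637 windows along their 3′-UTRs. The centres of the peaks, at 59.1% to 64.9%, were above both shares in each list, with KO-2 the lowest (59.1%). These centres include peaks in the 3′-UTR (25.8%, 26.6%, 16.3% and 20.8% of placed peaks), so the coding share alone is no matched background. Only exonic bases of a centre were searched, so a centre could hold fewer than 200 bases. Over all genes 60.62% of the coding windows and 41.66% of the 3′-UTR windows held GGAC. The peak centres of KO-2 over all genes (60.2%) lay between these shares, and 46.6% of its placed peaks were in the 3′-UTR. Whether the peak centres exceeded windows matched by place was not tested.

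Genes with peaks in both lists of 1 genotype and in neither list of the other were rare. *Smarca4* was the single gene of 50 (2%) with a peak in both WT lists and no KO list, where 3.97% of all genes with a peak were called. *Smarca2* was the single gene (2%) on which both KO lists and no WT list had a peak, where 4.89% of all genes were called. Both encode the ATPase of SWI/SNF complexes. The *Smarca2* peaks of the KO lists overlapped, in exon 4 of 33 (chr19:26630670-26631084, plus strand, CDS), with a score of 686.6 in KO-1 and 85.75 in KO-2, and the latter was higher than the scores of just 3.83% of the peaks of its list. With each list cut to the same number of top peaks, the KO-2 peak was lost and so was the call. The *Smarca4* peaks shared no base: in WT-1 the peak was in exon 4 (chr9:21635584-21635940, CDS, score 196.94) and in WT-2 in the 3′-UTR of exon 34 (chr9:21702975-21703332, score 1099.33). No place on *Smarca4* therefore held a peak in both WT lists. In the upper 50% of peaks by score neither gene was called: *Kdm3b* took the place of *Smarca4*, which had a peak in WT-2 alone, and *Chd2* and *Smarcc1* that of *Smarca2*. Among 73 other chromatin genes with a peak, 3 were called for WT and 2 for KO. Without KO replicate 1, when a single KO list decided, *Ncoa2* joined the WT genes and *Kdm4a* the KO genes, and without WT replicate 2 *Smarcc1* joined the KO genes, which made 2 genes in each case. Over all genes, 475 were called for WT and 880 for KO without KO replicate 1, and 680 for KO without WT replicate 2.

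By number of peaks, 5 of 50 genes (10%) had more peaks in each KO list than in each WT list, against 7.99% of all genes with a peak. They were *Chd7*, a remodeller of enhancers, with 2 and 2 peaks in WT and 7 and 5 in KO BMDMs, *Arid1a*, a DNA-binding subunit of SWI/SNF, with 2 and 2 against 5 and 4, *Ncor1* with 2 and 2 against 4 and 4, *Kmt2c* with 3 and 5 against 6 and 6, and *Smarca2*. The reverse order was found for 3 of 50 genes (6%), against 5.55% of all genes: *Setd1b*, an H3K4 methyltransferase, with 4 and 4 peaks in WT and 3 and 3 in KO BMDMs, *Arid5b* with 3 and 3 against 2 and 2, and *Smarca4*. For single genes p was 0.33 at the least (two-sided exact permutation test), so no gene could pass a threshold, and both shares were near those of all genes. A stretch listed as several peaks counts several times: all 3 WT-1 peaks of *Arid5b* lay in 1 region of 3639 bp that every list shared. By region, *Arid5b* had none in both WT lists only and 1 in both KO lists only. *Kmt2c* had no region in both KO lists only. Among the 73 other chromatin genes 8 were higher in KO and 4 in WT lists. *Chd7*, *Arid1a* and *Ncor1* had more peaks in both KO lists also when each list was cut to the same number of top peaks, where 3 genes were called, whereas *Kmt2c* and *Smarca2* had not. In the upper 50% of peaks by score *Chd7*, *Arid1a*, *Ncor1* and *Kmt2c* had more peaks in both KO lists, as had 5 genes not called before, but *Smarca2* had not. None of the 3 genes higher in WT kept that order there: *Arid5b* held 1, 2, 2 and 1 peaks, *Setd1b* 1, 2, 2 and 2 and *Smarca4* 0, 1, 0 and 0, and the genes called were *Kdm3b*, *Kdm5b* and *Ncoa1*. With any 1 list left out, more genes were called in each direction than with all lists, since fewer lists had to be in order. Under these alternatives the calls by number of peaks were not compared with all genes. Whether they were more frequent on these genes than on all genes was therefore not tested.

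**Figure D5:**
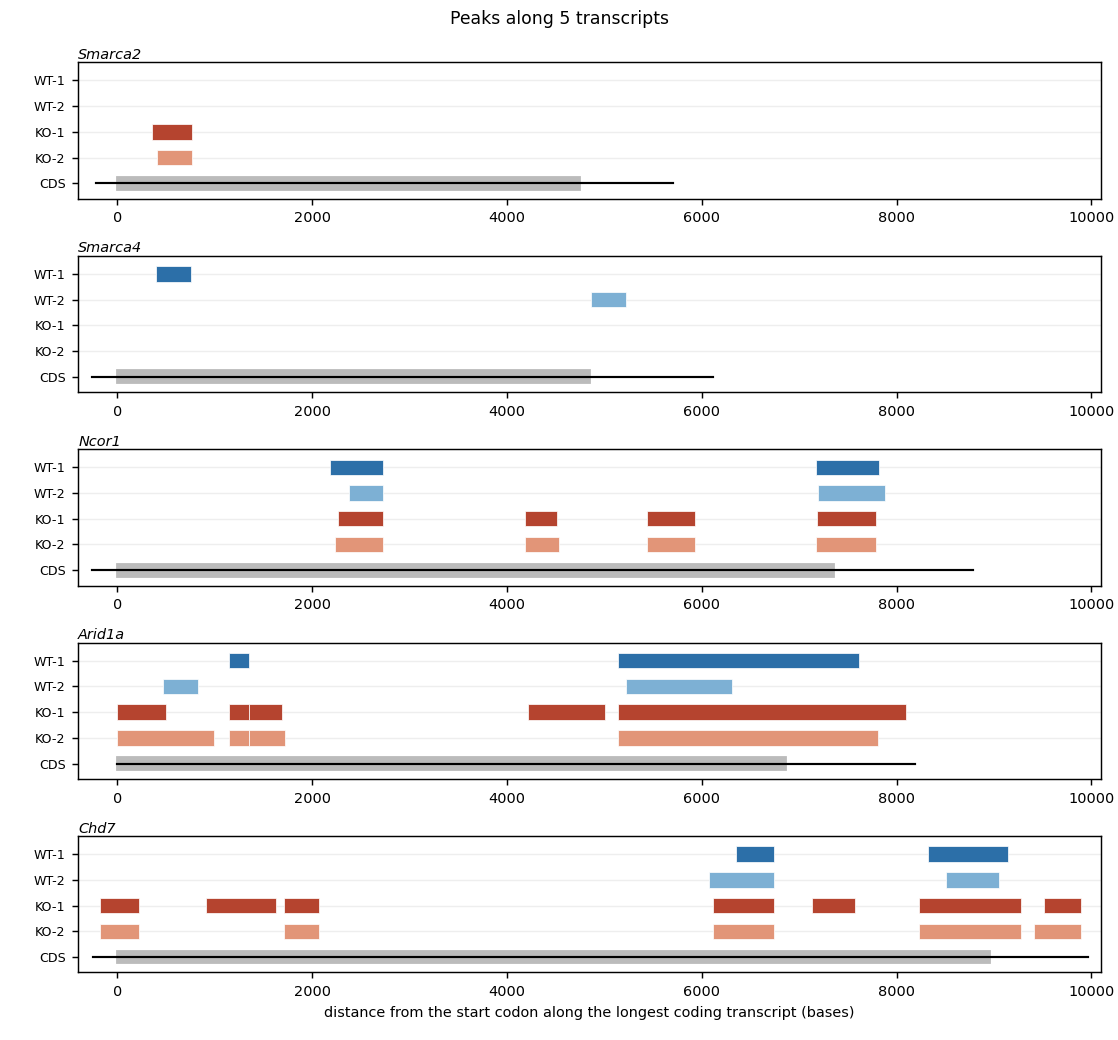
Peaks along the longest coding transcript of *Smarca2*, *Smarca4*, *Ncor1*, *Arid1a* and *Chd7* in each list, by the distance from the start codon (horizontal axis, bases), with the CDS as a grey bar and the UTRs as a line. The *Smarca4* peaks of WT-1 and WT-2 lie apart, and *Ncor1* shows 2 places and *Chd7* 3 places that the KO lists share and the WT lists lack.

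By region, 13 of 192 regions (6.77%) held a peak in both KO lists and no WT list, against 6.06% of all regions on genes, and 2 of 192 (1.04%) held one in both WT lists and no KO list, against 3.43%. With 1 list left out, when a genotype rested on 1 list, the numbers were 26 and 18 without WT replicate 1, 24 and 20 without WT replicate 2, 31 and 8 without KO replicate 1, and 29 and 6 without KO replicate 2. Over all regions on genes they were 1292 and 2018, 1165 and 1884, 2156 and 629, and 1895 and 666. Without either WT replicate, WT numbers were thus the higher over all regions, unlike on the 58 genes. The 13 KO regions lay on 10 genes. *Chd7* had 3, in exon 2 (chr4:8751324-8751729), exon 3 (chr4:8785407-8785763) and the 3′-UTR of exon 38 (chr4:8867103-8867587), all on the plus strand. *Ncor1* had 2, in exon 37 (chr11:62333663-62334156), where the peak filled the 494 bp of the exon, and in exon 31 (chr11:62343007-62343351), on the minus strand. Single regions lay in coding exons of *Kmt2a* (exon 27), *Kmt2d* (exon 12), *Arid1a* (exon 3), *Smarca2* (exon 4), *Tet2* (exon 3), *Tet3* (exon 10), *Dnmt3a* (exon 4) and *Arid5b* (exon 4). In total 12 of 13 midpoints (92.3%) were in the CDS, where 53.4% of such regions of all genes were. Regions of the 58 genes in all 4 lists also lay mostly in the CDS (83.9% of placed midpoints). The WT regions lay in exon 7 of *Setd1b* (chr5:123152188-123152659, plus strand, CDS) and in the last exon of *Kdm5b*, an H3K4 demethylase (chr1:134631237-134631806, plus strand, midpoint in the 3′-UTR).

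The scores of these regions were uneven between mice. The KO region in *Chd7* exon 3 had a score of 2430.98 in KO-1 and 317.84 in KO-2, and that in *Ncor1* exon 37 had 793.79 and 134.8. In *Chd7* exon 38 the order was reversed, with 60.38 in KO-1 and 2966.64 in KO-2, and the *Setd1b* region had 137.65 in WT-1 and 1670.24 in WT-2. The *Kmt2d* region was more even, with 836.78 in KO-1 and 1521.15 in KO-2. Of the 13 KO regions 11 held GGAC, and those of *Arid1a* exon 3 and *Chd7* exon 3 did not. Sequences of 120 bases from the bases shared by both lists are shown for the genes named by genotype and for *Kmt2d*, so that regions with and without the motif can be read side by side. They are given 5′ to 3′ on the strand of the gene (GRCm38), with GGAC in capitals, and the last is the WT region.
Smarca2 exon 4, chr19:26630885-26631004, plus strand: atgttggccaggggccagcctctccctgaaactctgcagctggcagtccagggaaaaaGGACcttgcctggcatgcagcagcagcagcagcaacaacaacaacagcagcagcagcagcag
Ncor1 exon 31, chr11:62343029-62343148, minus strand: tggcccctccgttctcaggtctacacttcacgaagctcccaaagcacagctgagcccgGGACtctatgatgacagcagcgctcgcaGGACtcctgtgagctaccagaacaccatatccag
Ncor1 exon 37, chr11:62333724-62333843, minus strand: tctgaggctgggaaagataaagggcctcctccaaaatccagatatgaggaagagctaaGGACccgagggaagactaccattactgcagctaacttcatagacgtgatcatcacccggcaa
Arid1a exon 3, chr4:133720771-133720890, minus strand: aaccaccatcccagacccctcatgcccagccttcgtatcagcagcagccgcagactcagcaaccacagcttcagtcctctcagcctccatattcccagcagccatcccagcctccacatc
Chd7 exon 3, chr4:8785526-8785645, plus strand: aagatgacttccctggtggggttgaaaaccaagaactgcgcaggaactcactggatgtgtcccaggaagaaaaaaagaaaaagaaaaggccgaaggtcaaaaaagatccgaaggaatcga
Kmt2d exon 12, chr15:98861620-98861739, minus strand: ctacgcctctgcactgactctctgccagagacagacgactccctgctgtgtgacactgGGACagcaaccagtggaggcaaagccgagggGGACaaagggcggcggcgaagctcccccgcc
Setd1b exon 7, chr5:123152448-123152567, plus strand: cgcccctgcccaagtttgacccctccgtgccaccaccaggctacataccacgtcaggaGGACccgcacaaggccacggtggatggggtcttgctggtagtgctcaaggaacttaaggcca

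The *Ncor1* exon 31 and *Kmt2d* exon 12 sequences hold GGAC at 2 places each, and the *Arid1a* and *Chd7* sequences at none. A match is a description of these letters and shows no m6A site. Peaks on these genes had a higher median width than peaks on all genes in each list, with 568.5, 536.5, 577 and 601.5 bp in the 4 lists, and 488, 503, 509 and 551 bp over all genes. Within its list, the median peak on these genes had a score above that of 58.6%, 62.0%, 71.8% and 65.6% of all its peaks in the 4 lists. The bases shared by the 2 KO lists on these genes, as the Jaccard index of 0.639, were above those over all genes (0.522), and so were those shared by the 2 WT lists (0.430 and 0.362).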

How the data were processed

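Per the labels, reads were handled with cutadapt 1.9.3 and HISAT2 2.0.4 on mm10, and an IP and an input library stood behind each of the 4 deposited peak lists. The peak caller and its settings are not given in the sources used here. The values are the authors' peak scores, with peak names in the form of MACS, and were used only to rank peaks within a list. Read counts were not used here, so the depth is unknown and no interval was computed. The genes, the lists of other genes and the rules were chosen with earlier results of these data known. Peaks were assigned to the protein-coding gene with the largest exon overlap on the same strand (GENCODE M21, exons of coding transcripts), which succeeded for 94.8% to 96.2% of peaks. Merging, presence and exonic place were computed in Python 3.11.15 with numpy 2.4.6 and pysam 0.24.0, and figures were drawn with matplotlib 3.10.9. The functions were tested on simulated data.

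Groups came from the labels, which name 2 mice per genotype. Tests were two-sided exact permutation tests over lists. Same-numbered mice were not treated as pairs, since the labels name no shared litter or day and the replicate differences of WT and KO lists had a correlation of −0.0859 over 192 regions. Sample numbers in the labels lie close together within same-numbered mice. Whether these mice shared a batch is not known, so a replicate block was run as an alternative. Genes are named if called by genotype or by peak number, if among the 10 with the most regions in all 4 lists, if without a peak, or as the highest and lowest of a role group. *Kdm5b*, *Tet2*, *Tet3* and *Dnmt3a* in the region comparison, and other genes shown as examples, were named after their values were seen. As alternatives, lists were cut to the upper 50% of peaks by score or to the same number of top peaks (6159), each list was left out, and a replicate block, other transcripts and exon rules, a gap of 100 bp or coverage of 50% for regions, and central windows of 200 bp were used. Assignment to exons of every transcript was chosen after seeing the data.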

Additional observations from a re-analysis of the deposited data

How the results depend on the processing

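Genotype differences rest on 2 mice each, no read counts, and presence calls whose threshold is unknown, so a missing peak may reflect depth or low expression. The gain of 14 peaks and the higher CDS share in KO BMDMs kept their direction under every alternative run. The GGAC difference of 0.0925 points did not: it was -0.887 in the upper 50% of peaks by score, -0.314 with lists cut to the same number of top peaks, -4.94 in central windows, and between -0.371 and 0.556 with each list left out. The difference in genes with a peak was 2.5 in the upper 50% of peaks, 0 with lists of the same length, and 0 to 1 with each list left out. In the upper 50%, 2 genes had peaks in both KO lists only, 4 regions were in both WT lists only, 9 genes had more peaks in each KO list, *Setd1b* turned to 0.5 more peaks in KO, and *Smarca4*, *Smarca2* and *Arid5b* lost their calls. With lists of the same length these were 0 genes in both KO lists only and 3 genes with more peaks in KO. With each list left out, regions in both WT lists only ranged from 6 to 20 and in both KO lists only from 24 to 31, genes with peaks in one genotype only from 1 to 2 for WT and 1 to 2 for KO, genes with more peaks in KO from 10 to 14 and with more in WT from 5 to 10. Over all genes, the upper 50% gave 183 genes in both KO lists only and 157 regions in both WT lists only. Lists of the same length gave 274 genes in both KO lists only. With each list left out, regions over all genes ranged from 629 to 2018 for WT and 1165 to 2156 for KO. Genes of one genotype ranged from 475 to 1002 for WT and 680 to 880 for KO. With the replicate block, which needs order only within pairs, 8 genes had more peaks in KO and 4 in WT, the other counts did not change, and the 14 peaks had p = 0.5 (exact sign-flip permutation), the smallest possible. For the alternatives, the numbers of genes with more peaks in one genotype were not compared with all genes. Apart from fewer peaks or lists, the cause of the changes under the alternatives was not tested.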
